A study of Homo sapiens with 15 samples.

Results

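The comparison described here is the response of MM.1S myeloma cells to bone marrow stroma across a membrane: 3 libraries of cells from the upper transwell (TSW) against 3 libraries of cells in monoculture (MONO). Its members are all genes with a mean of at least 1 RPKM (reads per kilobase of transcript, scaled to library size) over the 9 MM.1S libraries, which took 10153 of 20468 genes, and its samples are 6 of the 15 RNA-seq libraries of the study. The study asked how stroma changes the transcriptome and the chromatin of multiple myeloma cells. It also sequenced MM.1S cells from the lower chamber, in contact with the stroma (CO, 3 libraries), and RPMI8226, another myeloma line, in the same conditions with 2 libraries each.

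MM.1S is an established human myeloma line, and HS5 is an established human bone marrow stromal line. In the study's methods HS5 cells were plated the day before, and MM.1S cells were then added both onto the stromal layer and to the insert above the membrane. Monocultures held MM.1S cells without stroma or insert. All cultures lasted 48 h, and CD38+ CD90- cells were sorted before mRNA libraries were made. The wells of TSW thus also held HS5 and MM.1S cells below the membrane, in shared medium, and held more cells and more medium than a monoculture well. Stromal factors, products of the MM.1S cells below, exosomes that pass the membrane, and the number of cells and volume of medium per well cannot be told apart in this design. The methods also name a trypsin treatment of cells from co-culture conditions before the sort, without saying whether cells of the insert had it, and its part in the differences was not tested. The labels number the replicates without saying whether they were separate cultures, so the p-values measure the spread between these samples.

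Myeloma is a cancer of plasma cells, the antibody-secreting end stage of the B lineage, and its cells depend on the marrow stroma for growth and survival signals. Stromal cells secrete IL6 and related cytokines, which bind receptors that contain gp130, activate JAK kinases and lead to phosphorylated STAT3, a transcription factor that induces its own inhibitor SOCS3. Plasma cells also carry a heavy load of secretory protein, and use the unfolded protein response of the endoplasmic reticulum (ER) and the integrated stress response, in which ATF4 drives amino acid uptake and synthesis when eIF2 is phosphorylated.

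The libraries held 9008972, 19050755 and 13265496 paired-end tags on genes in MONO1 to MONO3 and 14260726, 15206205 and 13126688 in TSW1 to TSW3. A single tag on a 2 kb transcript was 0.0555 RPKM in MONO1, the shallowest library, and 0.0262 RPKM in MONO2, the deepest by these values. The study's own count of tags on genes is lower for MONO2 than for TSW2, and is printed identically for MONO2 of RPMI8226. These depths set counting error only, since tags without molecular identifiers are not independent molecules.

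MONO1 stood apart from the other libraries by gene length. In the shortest group of genes, of 59 to 2295 bases, its median log2 value lay 0.27 above the TSW median, and in the longest, of 5603 to 32252 bases, it was at -0.36. MONO2 was at 0.02 and -0.02 in those groups, and MONO3 at -0.03 and -0.00. Genes called higher in TSW numbered 137, 150, 170 and 201 from the shortest to the longest group, and genes called lower 150, 99, 88 and 85. Without MONO1 those counts were 168, 140, 127 and 111 higher and 121, 87, 102 and 110 lower. The part of RNA quality or library preparation in this skew was not tested. Where leaving out MONO1 changed a call or moved a called value by over 1.5 times, the result is given with and without it.

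**Figure D1:**
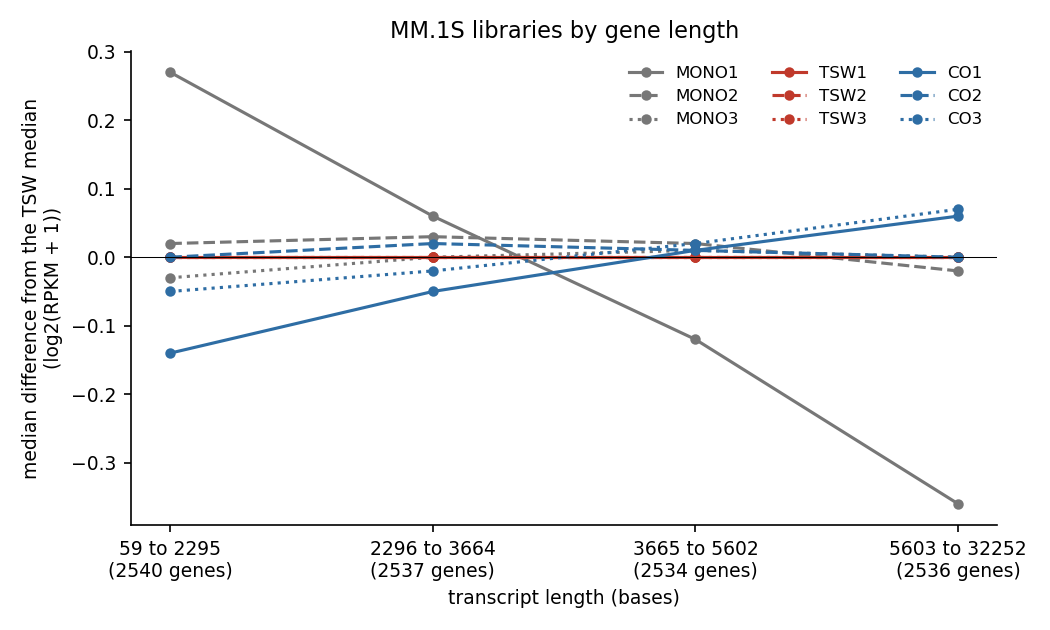
Median difference of each MM.1S library from the TSW median, in log2(RPKM + 1), for the tested genes in 4 groups of equal size by transcript length, shortest to longest. Lines are libraries, colored by condition; MONO1 runs from 0.27 in the shortest group to -0.36 in the longest, and MONO2 and MONO3 stay between -0.03 and 0.03.

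All 12 plasma cell markers passed the filter, among them the transcription factors XBP1, PRDM1 and IRF4, the surface receptor TNFRSF17 and the antibody joining chain JCHAIN. JCHAIN was the most abundant, at a mean of 3753 RPKM in MONO and 2075 RPKM in TSW. The summed level of the 12 was 5979, 5019 and 5279 RPKM in MONO and 4116, 3987 and 3976 RPKM in TSW. JCHAIN was the largest part of these sums, so their fall does not describe the list as a whole. Of the 12 genes 4 were called higher in TSW and 2 lower, with a median log2 fold change of -0.02. Of 11 T and NK cell markers, none passed the filter. Their summed level was 4.66, 4.12 and 2.55 RPKM in MONO and 3.69, 2.64 and 2.55 RPKM in TSW. Of 9 myeloid markers 2 passed the filter, and their summed level was 15.4, 12.6 and 11.1 RPKM in MONO and 16.6, 18.9 and 17.5 RPKM in TSW, of which CD68, a lysosomal membrane protein, gave a mean of 11.0 and 13.9 RPKM.

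Stromal marker genes were low in both groups. Of 42 genes typical of stromal cells, 17 had no tag in any of the 6 libraries, among them COL1A2, COL3A1, COL6A1, LUM, POSTN, MMP1, MMP2 and MMP3, and 35 were under 1 RPKM in all 6. Their summed level was 33.3, 37.1 and 37.2 RPKM in MONO and 25.0, 25.1 and 26.1 RPKM in TSW, and the most abundant was CAV1, a membrane scaffold protein, at a mean of 17.6 RPKM in MONO and 10.3 RPKM in TSW. The same genes summed to 230.0, 246 and 213 RPKM in the CO libraries, where the collagenase MMP1 reached a mean of 44.2 RPKM.

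In MM.1S cells above the membrane, 35 of 53 integrated stress response genes rose, as did 17 of 45 genes of IL6-type cytokine signaling, 12 of 37 genes of lipid synthesis and 5 of 11 genes of liver X receptors and cholesterol export, against 6.48% of all genes tested. Lists were chosen with earlier results of these data known, so list shares in this report describe the chosen genes and are not tests. The secreted cytokine IL32, the JAK inhibitor SOCS3 and the cholesterol exporter ABCA1 went from under 1 RPKM in every MONO library to between 9.92 and 84.9 RPKM in the TSW libraries. Of 15 class II antigen presentation genes 10 fell, against 4.16% of all genes tested, with HLA-DRA at 435 RPKM in MONO and 120.4 RPKM in TSW on average. The chemokine receptor CXCR3 fell from 11.5 to 1.98 RPKM. Tests used limma on log2(RPKM + 1) with all 9 MM.1S libraries in the fit, and a gene was called when its fold change exceeded 1.5 with an adjusted p below 0.05. In this report a gene rose or fell if it was called. Log2 fold changes are TSW minus MONO of log2(RPKM + 1), with their standard error (SE, n = 3 libraries per group).

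Of the 10153 genes, 658 were called higher in TSW (6.48%) and 422 lower (4.16%), or 1080 in all (10.6%). All 3 TSW values lay above all 3 MONO values in 2375 genes (23.4%) and below them in 2092 genes (20.6%). Among called genes that held for 656 of 658 higher and 418 of 422 lower. The median size of a called change was 0.78 on the log2 scale in either direction. Changes over 4-fold in RPKM + 1 numbered 37 higher and 7 lower, and changes over 2-fold 183 and 108. This scale understates the fold change in RPKM of genes at low levels. Replicates were closer in TSW, with a median SD of 0.081 on the log2 scale, than in MONO, with 0.184. Without MONO1 the calls were 546 higher and 420 lower, of which 478 and 331 were among the calls of the full fit. Over all genes tested the median log2 fold change was 0.01, and list medians below are read beside it. Shares called in a list, in either direction unless stated, are read beside 10.6% of all genes tested, of which 6.48% were higher and 4.16% lower.

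**Figure D2:**
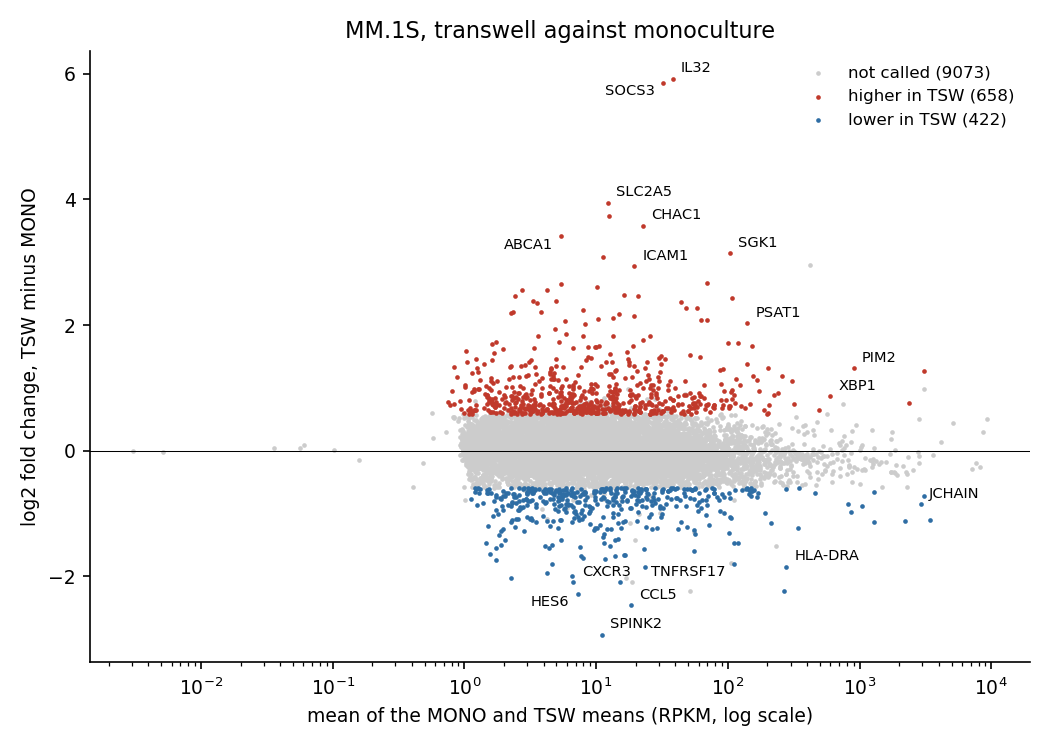
Each point is 1 of the 10153 tested genes, with its mean level over the MONO and TSW libraries (RPKM, log scale) on the x axis and its log2 fold change, TSW minus MONO, on the y axis. Genes with no tag in MONO and TSW are not drawn. Called genes are colored, 658 higher and 422 lower; IL32 at 5.92 and SOCS3 at 5.86 lie at the top, and SPINK2 at -2.93 at the bottom.

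Genes of the IL6-type cytokine pathway that rose included STAT factors, the kinase JAK3, 3 feedback inhibitors with SOCS3 among them, and 9 targets. Of the 45 genes tested 17 rose (37.8%, against 10.6% of all tested genes called in either direction), and the median log2 fold change was 0.36. SOCS3, the feedback inhibitor of JAK kinases, was at 0.162, 0.115 and 0.110 RPKM in MONO and 63.5, 66.9 and 62.7 RPKM in TSW, and STAT3, the factor it restrains, at 14.9, 15.8 and 16.0 RPKM in MONO and 44.2, 46.0 and 44.2 RPKM in TSW. In both genes every TSW value lay above every MONO value. Log2 fold changes were 5.86 ± 0.08 (adjusted p = 7.50e-12) for SOCS3 and 1.47 ± 0.08 (adjusted p = 4.47e-07) for STAT3. STAT4, a STAT that relays IL12 in lymphocytes, was at 1.10, 1.26 and 1.37 RPKM in MONO and 5.30, 5.22 and 4.85 RPKM in TSW, and JAK3, the kinase paired with the common gamma chain, at 4.38, 4.47 and 4.37 RPKM in MONO and 23.4, 22.6 and 21.0 RPKM in TSW. JAK3 was thus steady within each group and, by mean RPKM, 5.06-fold higher in TSW. STAT2 also rose, from a mean of 15.0 to 24.2 RPKM.

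Receptors of the family were not called by limma. Among 9 tested, 7 had an unadjusted p under 0.05, and a fit of the recovered tag counts with voom called 1 higher and 2 lower. IL6ST, which encodes gp130, averaged 26.4 RPKM in MONO and 38.6 RPKM in TSW, with a log2 fold change of 0.64 in the full fit. It was called at 0.89 without MONO3, and was at 0.23 and not called without MONO1, its lowest library. The IL6 receptor gene IL6R averaged 71.4 and 107 RPKM, and was called at log2 fold changes of 0.65 without MONO2 and 0.59 without TSW3. JAK2, a kinase bound to these receptors, averaged 2.17 and 3.12 RPKM and was not called, at a log2 fold change of 0.40, and 0.23 to 0.56 with a library left out. IL6ST and IL6R have 1 named pseudogene each, and reads shared with these cannot be separated in these tables.

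Targets of STAT3 made up most of the calls, with 9 of 13 higher and a median of 0.89. JUNB, an AP-1 subunit, was at 17.8, 15.7 and 14.2 RPKM in MONO and 81.8, 81.7 and 78.2 RPKM in TSW, and BCL3, an atypical IkappaB protein, at 6.06, 5.50 and 4.49 RPKM in MONO and 21.4, 21.7 and 21.4 RPKM in TSW. BCL6, a repressor of the germinal center stage, was under 1 RPKM in each MONO library, at 0.204, 0.131 and 0.168 RPKM in MONO and 4.50, 4.38 and 4.06 RPKM in TSW. TSW values of all these genes lay above their MONO values, with log2 fold changes of 2.28 ± 0.09 (adjusted p = 6.89e-08), 1.83 ± 0.11 (adjusted p = 1.17e-06) and 2.19 ± 0.09 (adjusted p = 6.89e-08). PIM2, a survival kinase that myeloma cells express at high levels, was at 529, 549 and 472 RPKM in MONO and 1336, 1302 and 1229 RPKM in TSW. It gained 772 RPKM on average. The related PIM3 rose from 12.4 to 23.6 RPKM, the angiogenic factor VEGFA from 8.75 to 17.6 RPKM and the factor CEBPB from 4.48 to 8.53 RPKM. PIM1 and the survival gene MCL1 were not called, at 44.9 and 112 RPKM in MONO and 41 and 143 RPKM in TSW.

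**Figure D3:**
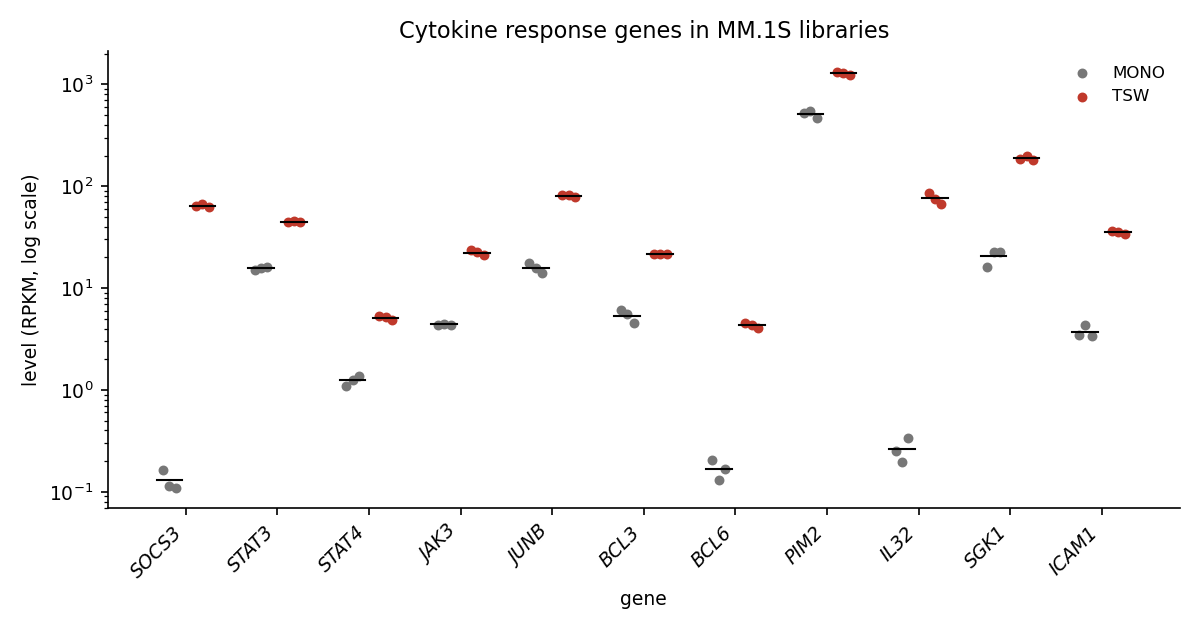
Level of 11 cytokine response genes (RPKM, log scale) in each MONO and TSW library of MM.1S cells, with a bar at the group mean. In each of the 11 genes the 3 TSW points lie above the 3 MONO points; SOCS3 goes from a mean of 0.129 to 64.4 RPKM and PIM2 from 516 to 1289 RPKM.

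IL32, SGK1 and ICAM1 were among the 12 largest increases of log2 level in called genes without overlap. IL32, a cytokine of lymphocytes, was at 0.250, 0.197 and 0.340 RPKM in MONO and 84.9, 75.3 and 67.3 RPKM in TSW, and SGK1, a kinase that acts beside AKT, at 16.1, 22.7 and 22.8 RPKM in MONO and 185, 197 and 179.9 RPKM in TSW. ICAM1, the ligand of leukocyte integrins, was at 3.45, 4.35 and 3.41 RPKM in MONO and 36.3, 35.8 and 33.7 RPKM in TSW. In the order named, the log2 fold changes were 5.92 ± 0.10 (adjusted p = 2.91e-11), 3.14 ± 0.13 (adjusted p = 6.89e-08) and 2.94 ± 0.10 (adjusted p = 2.48e-08). ICAM1 shares 23.6% of its exon bases with an antisense gene, and the counting was not stated to use the strand. SPP1, the bone matrix protein osteopontin, was at 0.0612, 0.347 and 0.374 RPKM in MONO and 3.67, 3.66 and 2.31 RPKM in TSW, a rise from a level of few tags. Of 12 secreted angiogenic and bone disease factors 3 rose and 4 fell (58.3%), with a median of -0.00. The latter included TGFB1, from 19.7 to 10.3 RPKM, and IL16, from 20.7 to 10.4 RPKM, which shares 34.9% of its exon bases with STARD5 on the other strand. Adrenomedullin, ADM, a vasodilator peptide that hypoxia induces, fell from 101 to 44 RPKM.

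Interferon-stimulated genes moved in part. Of 50 tested, 14 rose and 3 fell (34.0%), with a median of 0.28. GBP2, a GTPase of cell-autonomous immunity, was at 2.07, 2.30 and 2.08 RPKM in MONO and 19.1, 19 and 16.7 RPKM in TSW. PARP9 was at 0.593, 0.683 and 0.831 RPKM in MONO and 6.76, 6.48 and 7.46 RPKM in TSW, and its partner DTX3L, a ubiquitin ligase, at 6.85, 9.56 and 10.8 RPKM in MONO and 18.6, 18.6 and 19.5 RPKM in TSW. All TSW values of these genes were above the MONO values, with log2 fold changes of 2.61 ± 0.10 (adjusted p = 6.07e-08), 2.21 ± 0.10 (adjusted p = 1.24e-07) and 1.0 ± 0.13 (adjusted p = 3.18e-04). IRF9, a factor of the interferon response, rose from 2.71 to 6.04 RPKM, and the antiviral GTPase MX1 from 1.13 to 2.53 RPKM. IRF9 overlaps other genes in 23.9% of its exon bases. The classical antiviral gene ISG15 was not called in the full fit, at 3.92 and 5.90 RPKM, with a log2 fold change of 0.51. It was called at 0.69 without MONO1, and was at 0.34 without MONO3. Members that fell were the chemokine CXCL10, at 15.8, 12.2 and 14.2 RPKM in MONO and 7.32, 7.52 and 8.65 RPKM in TSW, the STAT-binding protein NMI, from 17.5 to 9.14 RPKM, and RTP4, a chaperone of G protein-coupled receptors, from 12.6 to 6.93 RPKM. The list thus held genes of opposite direction with no overlap between groups.

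Genes around NF-kappaB moved in both directions, 10 higher and 10 lower of 52 tested (38.5%), with a median of -0.09. Of 5 genes that encode subunits 1 fell. NFKB1 and NFKB2, which are among the 5, were not called, at 29.6 and 48.2 RPKM in MONO and 24.7 and 40.1 RPKM in TSW. IRAK2, a kinase-like adaptor of IL1 and Toll-like receptors, was at 0.927, 1.57 and 1.24 RPKM in MONO and 5.19, 4.98 and 4.65 RPKM in TSW, and BIRC3, a ubiquitin ligase of the pathway, at 23.6, 20 and 24.3 RPKM in MONO and 46.9, 47.9 and 54.2 RPKM in TSW. Both rose without overlap, by 1.41 ± 0.11 (adjusted p = 8.40e-06) and 1.10 ± 0.14 (adjusted p = 1.97e-04). On the other side, IKBKE, an IKK-related kinase, was at 20.5, 18.9 and 18.3 RPKM in MONO and 6.62, 6.59 and 5.09 RPKM in TSW, and TNFAIP3, which encodes the inhibitor A20, at 24.7, 39.5 and 39.7 RPKM in MONO and 17.8, 19.3 and 17.7 RPKM in TSW. Both fell without overlap, by -1.52 ± 0.11 (adjusted p = 3.41e-06) and -0.86 ± 0.15 (adjusted p = 0.00240). TNFAIP8, a relative of apoptosis regulators, fell from 21.9 to 8.79 RPKM, and NFKBIZ, an inducible nuclear IkappaB, rose from 0.843 to 2.26 RPKM.

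Some immediate early and AP-1 genes rose. FOS was at 0.154, 0.170 and 0.210 RPKM in MONO and 4.81, 5.27 and 3.42 RPKM in TSW, and ATF3, a factor induced by several stresses, at 10.2, 11.1 and 9.99 RPKM in MONO and 28.2, 28.5 and 27.7 RPKM in TSW. MAF, the factor that marks a subtype of myeloma, was at 47.6, 62.4 and 61.3 RPKM in MONO and 114, 116 and 127 RPKM in TSW. Their log2 fold changes were 2.21 ± 0.15 (adjusted p = 2.74e-06), 1.35 ± 0.11 (adjusted p = 8.19e-06) and 1.06 ± 0.14 (adjusted p = 4.13e-04), with every TSW value above the MONO values. Of 14 AP-1 genes 6 rose (42.9%) and 8 did not pass the test, with a median of 0.18. ETV5, an ETS factor induced by ERK, was at 2.22, 4.01 and 3.86 RPKM in MONO and 17.3, 18.6 and 16.2 RPKM in TSW, and ETV4 rose from 0.620 to 2.30 RPKM. DUSP4, a phosphatase of ERK and JNK, fell from 11.6 to 5.89 RPKM while DUSP5, specific for ERK, rose from 78.6 to 126 RPKM. Of 22 genes of ERK feedback and the immediate early response 7 rose and 2 fell (40.9%), with a median of 0.19. KLF2, a quiescence factor of lymphocytes, was the other gene lower, at 20.2, 17.8 and 12.3 RPKM in MONO and 4.24, 6.20 and 7.0 RPKM in TSW.

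Of 15 tested genes of class II antigen presentation 10 fell (66.7%, against 4.16% of all tested genes), with a median of -1.08. The alpha chain HLA-DRA was at 445, 453 and 407 RPKM in MONO and 125, 123 and 113 RPKM in TSW, and its partner HLA-DRB1 at 109, 63.8 and 80.1 RPKM in MONO and 28.8, 27.0 and 24.2 RPKM in TSW. CIITA, the coactivator that drives class II transcription, was at 2.83, 4.55 and 4.07 RPKM in MONO and 1.04, 1.44 and 1.29 RPKM in TSW. MONO values lay above all TSW values in each, and log2 fold changes were -1.84 ± 0.10 (adjusted p = 5.33e-07), -1.60 ± 0.17 (adjusted p = 6.46e-05) and -1.08 ± 0.14 (adjusted p = 2.43e-04). The invariant chain CD74, which guards the peptide groove, fell from 1058 to 588 RPKM, and the peptide editors HLA-DMA and HLA-DMB fell from 33.7 and 7.29 RPKM to 13.8 and 1.96 RPKM. HLA genes are near-identical and polymorphic, so reads can be counted to the wrong member, while CD74 and CIITA are not part of that family. The class II genes fell in 10 of 15 in each fit that left out a single library.

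Class I presentation had 2 calls among 21 genes (9.52%, against 10.6%), with a median of -0.03. The light chain B2M averaged 793 RPKM in MONO and 975 RPKM in TSW and was not called. NLRC5, the coactivator of class I genes, rose from 0.969 to 2.28 RPKM.

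Genes of the integrated stress response rose in 35 of 53 (66.0%) and 1 fell, with a median of 0.80, and without MONO1 the counts were 35 and 2 with a median of 0.86. CHAC1, which degrades glutathione, was at 1.85, 3.73 and 2.66 RPKM in MONO and 42.7, 43.8 and 42.2 RPKM in TSW, and DDIT3, the factor CHOP, at 5.52, 3.85 and 4.99 RPKM in MONO and 23.3, 26.5 and 25.5 RPKM in TSW. ATF4, the central factor of the response, was at 205, 135 and 139 RPKM in MONO and 373, 366 and 336 RPKM in TSW. TSW values were above MONO values throughout, with log2 fold changes of 3.58 ± 0.16 (adjusted p = 1.22e-07), 2.18 ± 0.14 (adjusted p = 2.27e-06) and 1.19 ± 0.15 (adjusted p = 2.70e-04). TRIB3, a pseudokinase that feeds back on this factor, was at 18.7, 18.2 and 14.9 RPKM in MONO and 48.3, 51.4 and 48.2 RPKM in TSW, and ATF5, a related factor, was the gene that fell, at 10.9, 7.58 and 6.78 RPKM in MONO and 2.24, 3.04 and 2.21 RPKM in TSW. ATF4 has 4 named pseudogenes, DDIT3 overlaps a synthetase gene on the other strand in 27.2% of its exon bases and ATF5 overlaps NUP62 in 19.5%, so their values carry that uncertainty. Sensors and eIF2 subunits were not called by limma, 12 tested with 4 at an unadjusted p under 0.05 and no call by voom. Among them EIF2AK4, the sensor of uncharged tRNA, averaged 17 and 21.4 RPKM, and EIF2AK3, the ER sensor PERK, 18.5 and 13.2 RPKM. The latter had a log2 fold change of -0.41 in the full fit and -0.67 to -0.28 with a library left out, and was called lower at -0.67 without MONO1.

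Amino acid synthesis rose in 12 of 13 genes, with a median of 1.26, and amino acid transport in 9 of 10, with a median of 0.91. PSAT1, the aminotransferase of serine synthesis, was at 50.2, 54.6 and 59.2 RPKM in MONO and 227, 224 and 226 RPKM in TSW, and PHGDH, which opens that pathway, at 9.18, 9.40 and 7.90 RPKM in MONO and 26, 27.8 and 24.2 RPKM in TSW. ASNS, which makes asparagine, was at 49.0, 42.6 and 46.6 RPKM in MONO and 146, 162 and 154 RPKM in TSW. The groups were far apart in each, by 2.03 ± 0.10 (adjusted p = 2.05e-07), 1.46 ± 0.11 (adjusted p = 7.31e-06) and 1.72 ± 0.10 (adjusted p = 6.81e-07). PCK2, the mitochondrial enzyme that feeds serine synthesis from pyruvate, rose from 1.97 to 9.76 RPKM and MTHFD2, of the mitochondrial folate cycle, from 119 to 229 RPKM. SLC7A11, the cystine carrier, was at 0.778, 1.08 and 1.26 RPKM in MONO and 5.65, 6.15 and 6.89 RPKM in TSW, and SLC7A5, the carrier of large neutral amino acids, at 73.5, 81.8 and 76.2 RPKM in MONO and 212, 206 and 189 RPKM in TSW. Their log2 fold changes were 1.83 ± 0.12 (adjusted p = 2.74e-06) and 1.38 ± 0.10 (adjusted p = 3.95e-06), again without overlap. SESN2, which senses leucine and restrains mTORC1, rose from 8.20 to 26.2 RPKM, and DDIT4, which restrains mTORC1 under stress, was at 18.6, 20.4 and 15.5 RPKM in MONO and 128, 114 and 119 RPKM in TSW. PSAT1 and ASNS have 4 and 5 named pseudogenes, and ASNS shares 49.3% of its exon bases with another gene on the same strand, so its level is uncertain.

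Of 23 cytosolic enzymes that charge tRNA and their partners 12 rose (52.2%, against 6.48%), with a median of 0.71 (10 and 0.52 without MONO1). Of 17 mitochondrial ones none was called by limma, 3 had an unadjusted p under 0.05 and voom called none, with a median of 0.10; the difference between the compartments was not tested. CARS, which charges cysteine tRNA, was at 28.4, 24.7 and 24.8 RPKM in MONO and 79.0, 75.1 and 75.6 RPKM in TSW, GARS, for glycine, at 92.2, 96.5 and 93.0 RPKM in MONO and 222, 212 and 210.3 RPKM in TSW, and AARS, for alanine, at 107, 110.2 and 95.7 RPKM in MONO and 236, 238 and 215 RPKM in TSW. All TSW values were above all MONO values, and the log2 fold changes were 1.53 ± 0.09 (adjusted p = 8.90e-07), 1.18 ± 0.08 (adjusted p = 3.32e-06) and 1.13 ± 0.10 (adjusted p = 1.60e-05). SARS and MARS, for serine and methionine, rose from 16.8 and 81.2 RPKM to 35.8 and 168 RPKM. CARS, GARS and AARS have named pseudogenes, 2, 1 and 1.

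**Figure D4:**
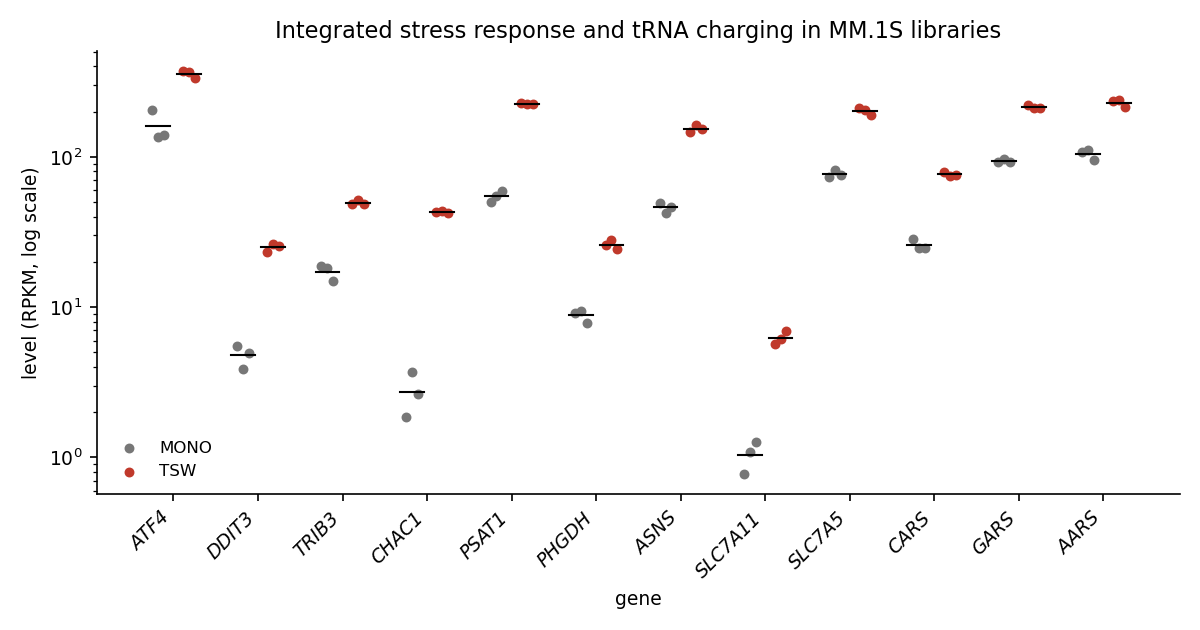
Level of 12 genes of the integrated stress response and of tRNA charging (RPKM, log scale) in each MONO and TSW library of MM.1S cells, with a bar at the group mean. The 3 TSW points lie above the 3 MONO points in each of the 12 genes, and CHAC1 goes from a mean of 2.75 to 42.9 RPKM.

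Promoters of these genes were searched for the composite element of ATF4 and CEBP, TGATGNAA, on both strands in the 300 bases from 250 before to 50 after the start site (RefSeq, GRCh38.p14). It was in 3.67% of all 27303 promoters of the reference, in 1.64% of the 8269 matched promoters of tested genes, in 6.51% of the 522 of genes called higher and in 0.601% of the 333 of genes called lower. It was in 7 of 29 called genes of the stress response (24.1%) and in 6 of 10 called cytosolic synthetases (60.0%). Its form TTGCATCA, which always matches the composite as well, was in 2 of the 29 (6.90%), 6 of the 10 (60.0%) and 0.496% of promoters of tested genes. A match describes letters in a window and not a bound site. The lists were drawn up by pathway, and shares within lists, here and below, cover called members only. They therefore do not tell members that were called from members that were not.

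Other motifs were searched in the same windows. The STAT element TTCNNNGAA was in 7.88% of all promoters, 6.17% of those of tested genes, 5.94% of those of genes called higher and 5.11% of those of genes called lower. It was in 1 of 13 called genes of IL6-type signaling with a promoter in the table (7.69%). The interferon-stimulated response element was in 3.65%, 2.79%, 4.21% and 2.70%, and in 10 of 15 called interferon-stimulated genes with a promoter in the table (66.7%). Among genes tested, called higher and called lower, the ER stress element was in 0.169%, 0.383% (2 of 522) and 0%, the XBP1 element TGACGTGG in 0.943%, 0.192% and 1.20%, and the AP-1 element in 4.06%, 3.45% and 3.60%. The NF-kappaB element was in 186 of the 8269, 20 of the 522 (3.83%) and 11 of the 333 (3.30%). In the same order shares were 11%, 9.58% and 10.5% for the E box, 11.4%, 10.7% and 8.11% for E2F and 1.03%, 1.92% and 0.901% for the sterol regulatory element. Among called genes with a promoter in the matching lists, the NF-kappaB element was in 5 of 18 (27.8%) and the sterol element in 0 of 9. In called secretory and unfolded protein genes the ER stress element was in 2 of 12 (16.7%) and the XBP1 element in 1 of 12 (8.33%). Shown are promoters of genes described in this report that rose and hold a match, in capitals. Each is written 5′ to 3′ on the strand of its gene. STAT elements are in ICAM1, chr19:10270870-10271169 on the plus strand, and BCL6, chr3:187745419-187745718 on the minus strand, with 4 matches. The interferon element is in DTX3L, chr3:122564088-122564387 on the plus strand, and the ER stress element in XBP1, chr22:28800520-28800819 on the minus strand. Distances of the match before the start site were 75 bases in ICAM1, 6 in DTX3L and 52 in XBP1.
ICAM1: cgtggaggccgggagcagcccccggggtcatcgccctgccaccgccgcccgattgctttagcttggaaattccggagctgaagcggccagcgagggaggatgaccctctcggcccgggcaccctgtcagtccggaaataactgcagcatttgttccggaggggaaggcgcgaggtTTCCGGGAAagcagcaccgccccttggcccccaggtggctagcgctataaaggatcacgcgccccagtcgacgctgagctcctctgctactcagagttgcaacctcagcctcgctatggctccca
BCL6: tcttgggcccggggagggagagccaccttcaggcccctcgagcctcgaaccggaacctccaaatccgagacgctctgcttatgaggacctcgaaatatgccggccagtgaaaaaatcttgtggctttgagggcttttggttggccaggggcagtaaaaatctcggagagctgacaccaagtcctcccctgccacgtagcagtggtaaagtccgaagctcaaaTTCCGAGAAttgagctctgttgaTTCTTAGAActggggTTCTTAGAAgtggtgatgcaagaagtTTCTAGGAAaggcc
DTX3L: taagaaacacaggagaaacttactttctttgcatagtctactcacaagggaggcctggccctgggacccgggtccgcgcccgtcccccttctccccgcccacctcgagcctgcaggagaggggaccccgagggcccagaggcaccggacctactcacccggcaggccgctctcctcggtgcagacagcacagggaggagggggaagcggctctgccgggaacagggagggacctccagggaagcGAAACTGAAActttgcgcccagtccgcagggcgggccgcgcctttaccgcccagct
XBP1: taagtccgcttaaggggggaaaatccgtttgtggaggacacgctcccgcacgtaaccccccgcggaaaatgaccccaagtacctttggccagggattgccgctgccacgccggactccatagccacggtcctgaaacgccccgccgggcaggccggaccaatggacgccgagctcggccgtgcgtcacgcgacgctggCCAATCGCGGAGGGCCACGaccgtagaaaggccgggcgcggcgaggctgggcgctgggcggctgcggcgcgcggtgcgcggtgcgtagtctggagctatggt

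Of 87 secretory and unfolded protein genes 11 rose and 2 fell (14.9%, against 10.6% of all genes tested), with a median of 0.04. EDEM1, which hands misfolded glycoproteins to degradation, was at 37.7, 67.2 and 65.7 RPKM in MONO and 183, 183 and 182 RPKM in TSW, and XBP1, the factor spliced by IRE1, at 438, 422 and 404 RPKM in MONO and 790.1, 792 and 732 RPKM in TSW. ERN1, which encodes IRE1, was at 14.2, 32.5 and 26 RPKM in MONO and 44, 50.4 and 43.2 RPKM in TSW. Their TSW values lay above all MONO values, by 1.71 ± 0.18 (adjusted p = 6.46e-05), 0.87 ± 0.11 (adjusted p = 2.31e-04) and 0.96 ± 0.22 (adjusted p = 0.00937). MONO1 was the lowest MONO value of EDEM1 and ERN1, and without it their log2 fold changes were 1.45 and 0.64, both still called. The sensor ATF6 rose from 19.7 to 37.7 RPKM, HERPUD1, a scaffold of ER degradation, from 166 to 314 RPKM, and TRAM2, a translocation protein, fell from 81.6 to 43.0 RPKM. HSPA5, the main ER chaperone BiP, was not called, at 234 and 268 RPKM, nor were DNAJB9 and HYOU1, at 27.5 and 101 RPKM in MONO and 33.2 and 119 RPKM in TSW. The count lower depended on single libraries: it was 5 without MONO1, 8 without MONO3, 4 without TSW2 and 1 without TSW3.

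Genes of the cell cycle were called in both directions. CDKN1A, the CDK inhibitor p21, was at 20.7, 20.6 and 16.9 RPKM in MONO and 92.2, 103 and 95.1 RPKM in TSW, and CDK6, a G1 kinase, at 10.1, 21.2 and 24.0 RPKM in MONO and 37.7, 40.0 and 43.0 RPKM in TSW. Both were higher in every TSW library, with log2 fold changes of 2.27 ± 0.12 (adjusted p = 4.87e-07) and 1.17 ± 0.25 (adjusted p = 0.00574), the latter 0.80 without MONO1. CDKN2D, an inhibitor of CDK4 and CDK6, rose from 4.26 to 8.69 RPKM, while CDKN1B, the inhibitor p27, was not called at 52.8 and 49.4 RPKM. Of the 4 inhibitors tested 2 rose and 1 fell. CCND2, the D cyclin of this line, averaged 269.7 and 388 RPKM and was called at a log2 fold change of 0.62 without MONO3 but not in the full fit. Of 25 G1 genes 3 rose and 1 fell (16.0%), with a median of -0.02; the count lower was 2 without MONO3 and limma made no such call without TSW3.

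Of 66 DNA replication genes 5 fell (7.58%, against 4.16% of all tested genes) and 61 were not called, with a median of -0.18. CLSPN, the checkpoint mediator claspin, was at 23.4, 19.2 and 17.9 RPKM in MONO and 9.71, 11.3 and 12.3 RPKM in TSW, and POLE4, a small subunit of polymerase epsilon, at 39.4, 32.6 and 33.4 RPKM in MONO and 21.2, 20.3 and 18.1 RPKM in TSW. All MONO values of both were above the TSW values, by -0.80 ± 0.12 (adjusted p = 7.91e-04) and -0.79 ± 0.15 (adjusted p = 0.00370). MCM2 and MCM7, of the replicative helicase, were not called, at 141 and 139 RPKM in MONO and 110.0 and 104 RPKM in TSW, and MCM2 shares 23.6% of its exon bases with an antisense gene. Of 65 mitotic genes 5 rose (7.69%, against 6.48% of all tested genes), with a median of 0.26. That count depended on the library, with 2 without MONO1 and 17 without MONO3, and the median was 0.14 without MONO1. ECT2, which starts cytokinesis, was at 6.25, 9.28 and 12.4 RPKM in MONO and 16.2, 17.7 and 17.5 RPKM in TSW. It kept its call in each fit that left out a single library and changed nothing else. The ECT2 call was lost when MONO1 was omitted together with a loess fit on GC content and length. MKI67, the proliferation antigen, was not called, at 46.2 and 41.3 RPKM (log2 fold change -0.15, and -0.34 to -0.04 with a library left out).

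Growth genes were mostly below the test's threshold. Of 103 genes of ribosome biogenesis and the MYC network 6 fell (5.83%, against 4.16% of all genes tested), with a median of -0.12, but 1 fell without MONO1, 12 without MONO3 and 3 without TSW3. MXD4, a MAX partner that opposes MYC, fell without overlap, at 11.1, 9.76 and 8.36 RPKM in MONO and 5.26, 4.96 and 4.91 RPKM in TSW. NCL, the nucleolar protein nucleolin, was not called, at 455 and 315 RPKM. Limma called none of 79 cytosolic ribosomal protein genes, of which 8 had an unadjusted p under 0.05 and voom called none. Their median was -0.19, and 0.01 without MONO1. Leaving out MONO1, MONO2, MONO3 or TSW3 gave 1, 1, 4 and 1 calls. Of 76 nuclear genes of oxidative phosphorylation limma and voom called none, with 9 at an unadjusted p under 0.05 and a median of -0.00; without MONO3 limma called 1.

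Lipid genes rose in 12 of 37 (32.4%, against 6.48%), with a median of 0.38: 5 of 9 in fatty acid synthesis, 4 of 9 in SREBP regulation and uptake and 3 of 19 in sterol synthesis. SREBF1, the factor of fatty acid synthesis, was at 3.68, 4.93 and 4.32 RPKM in MONO and 29.1, 29.9 and 26.7 RPKM in TSW, and SCD, which desaturates fatty acids, at 26.1, 36.0 and 38.9 RPKM in MONO and 176, 194 and 178 RPKM in TSW. They rose without overlap by 2.48 ± 0.11 (adjusted p = 1.10e-07) and 2.42 ± 0.13 (adjusted p = 5.04e-07). INSIG1, the sterol-sensitive retainer of SREBP, rose from 32.0 to 91.7 RPKM and FASN, the fatty acid synthase, from 35.6 to 67.7 RPKM. HMGCS1, an early enzyme of sterol synthesis, was not called, at 11.2 and 13.7 RPKM (log2 fold change 0.29, and 0.09 to 0.41 with a library left out), and shares 37.7% of its exon bases with an antisense gene.

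Genes of liver X receptors and cholesterol export rose in 5 of 11 (45.5%, against 6.48%), with a median of 0.32. ABCA1, which loads cholesterol onto apolipoproteins, was at 0.102, 0.0818 and 0.111 RPKM in MONO and 11.5, 10.8 and 9.92 RPKM in TSW, and ABCG1, which exports it to lipoproteins, at 0.174, 0.276 and 0.250 RPKM in MONO and 3.38, 2.78 and 2.84 RPKM in TSW. MYLIP, a ubiquitin ligase, was at 2.42, 2.39 and 2.50 RPKM in MONO and 6.67, 6.61 and 8.06 RPKM in TSW. TSW values exceeded all MONO values, and log2 fold changes were 3.41 ± 0.09 (adjusted p = 2.21e-09), 1.70 ± 0.10 (adjusted p = 1.32e-06) and 1.23 ± 0.10 (adjusted p = 9.50e-06).

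Of 40 genes of hexose uptake, glycolysis and hypoxia 5 rose and 2 fell (17.5%, against 10.6% of all tested genes), with a median of 0.11. SLC2A5, the fructose carrier, was at 0.803, 0.622 and 0.422 RPKM in MONO and 24.7, 24.4 and 22.4 RPKM in TSW, and SLC2A3, a high affinity glucose carrier, at 1.86, 1.92 and 1.90 RPKM in MONO and 8.23, 9.02 and 8.42 RPKM in TSW. Both were higher in every TSW library, by 3.95 ± 0.11 (adjusted p = 2.21e-09) and 1.72 ± 0.09 (adjusted p = 5.19e-07). HIF1A, the oxygen-sensing factor, was at 3.51, 9.87 and 10.1 RPKM in MONO and 16.4, 19.4 and 18.3 RPKM in TSW, with MONO1 lowest, and its log2 fold change of 1.22 ± 0.27 (adjusted p = 0.00804) was 0.79 without that library. LDHA, which makes lactate, was not called, at 804 and 1064 RPKM. The count lower was 1 without TSW2.

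Genes of plasma cell identity and the cereblon axis rose in 6 of 21 and fell in 1 (33.3%), with a median of 0.25. Of 16 plasma cell factors 4 rose and 1 fell, and of 5 B cell factors 2 rose. PRDM1, the factor BLIMP1 that commits B cells to secretion, was at 24.7, 34.2 and 34.2 RPKM in MONO and 53.2, 52.6 and 50.6 RPKM in TSW, and POU2AF1, a coactivator of octamer factors, at 66.8, 72.6 and 66.3 RPKM in MONO and 110.0, 124 and 109 RPKM in TSW. FAM46C, a poly(A) polymerase often mutated in myeloma, was at 199, 249 and 262 RPKM in MONO and 402, 403 and 381 RPKM in TSW. Their log2 fold changes were 0.75 ± 0.12 (adjusted p = 0.00132), 0.73 ± 0.09 (adjusted p = 2.35e-04) and 0.75 ± 0.12 (adjusted p = 9.07e-04), without overlap. JCHAIN was the member that fell, at 4102, 3402 and 3754 RPKM in MONO and 2134, 1966 and 2125 RPKM in TSW. IRF4, a factor on which myeloma depends, averaged 118 and 154 RPKM, and IKZF1 and IKZF3, degraded under lenalidomide through CRBN, averaged 16.8 and 24.7 RPKM in MONO and 19.8 and 31.4 RPKM in TSW. The log2 fold change of IKZF1 was 0.25, and 0.06 to 0.37 with a library left out. IRF4, IKZF1 and IKZF3 were not called, nor was CRBN, at 11.7 and 11.3 RPKM, which shares 35.6% of its exon bases with TRNT1. BCL6, described above, is the B cell factor of the list that rose most.

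Surface antigens moved both ways, 5 higher and 5 lower of 27 (37.0%), with a median of -0.11. TNFRSF17, the receptor BCMA to which antibody and cell therapies are directed, was at 216, 145 and 157 RPKM in MONO and 49.2, 48 and 47.4 RPKM in TSW, and GPRC5D, an orphan receptor used in the same way, at 11.6, 11.3 and 10.2 RPKM in MONO and 1.89, 2.28 and 1.88 RPKM in TSW. Every TSW value was below every MONO value, and the log2 fold changes were -1.80 ± 0.14 (adjusted p = 7.19e-06) and -2.0 ± 0.11 (adjusted p = 5.40e-07). HAVCR2, the checkpoint receptor TIM3, rose, at 3.11, 4.80 and 4.96 RPKM in MONO and 16.7, 15.8 and 13.8 RPKM in TSW, as did CD274, the ligand PD-L1, at 0.554, 0.579 and 0.436 RPKM in MONO and 1.62, 2.23 and 2.16 RPKM in TSW, and CD46, a complement regulator, from 64.2 to 112 RPKM. SDC1 and SLAMF7, surface markers of plasma cells, were not called, at 164 and 94.1 RPKM in MONO and 149 and 87.2 RPKM in TSW.

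Among 13 genes of the BCL2 family the single call of the full fit was BAD, a death promoter, at 23.6, 17.6 and 14.4 RPKM in MONO and 11.3, 8.44 and 10.0 RPKM in TSW. BAD shares 23.7% of its exon bases with GPR137 on the other strand. Without MONO1 there were 2 calls lower, and without MONO2 there was also 1 higher. BCL2L1, which encodes the protective BCL-XL, averaged 131 and 173 RPKM, and BCL2L11, which encodes BIM, 20.4 and 25.6 RPKM. BCL2L1 shares 41.3% of its exon bases with an antisense gene.

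Genes of chemokines and leukocyte trafficking, a list that holds chemokine receptors and RGS genes, fell in 7 of 17 and rose in 2 (52.9%), with a median of -0.22. CXCR3, a receptor for interferon-induced chemokines, was at 11.5, 11.6 and 11.3 RPKM in MONO and 2.70, 1.33 and 1.93 RPKM in TSW, and CXCR4, which holds plasma cells in the marrow, at 74.8, 84.3 and 82.5 RPKM in MONO and 35.6, 29.1 and 30.8 RPKM in TSW. CCL5, a chemokine of T cells, was at 41.7, 28.1 and 26.3 RPKM in MONO and 5.34, 4.86 and 4.53 RPKM in TSW. Each fell without overlap, by -2.09 ± 0.15 (adjusted p = 4.29e-06), -1.32 ± 0.10 (adjusted p = 6.96e-06) and -2.46 ± 0.15 (adjusted p = 1.34e-06). CCL3, which promotes osteoclasts in myeloma, was at 189, 136 and 117 RPKM in MONO and 50, 71.6 and 53.3 RPKM in TSW, and RGS1, which dampens chemokine receptors, at 183, 171 and 175 RPKM in MONO and 65.5, 64.1 and 60.5 RPKM in TSW. CCR10, a receptor of plasma cells bound for mucosa, fell from 15.2 to 6.17 RPKM, and shares 17.7% of its exon bases with CNTNAP1. CCL3 has a pseudogene and near-identical copies and shares 74.6% of its exon bases with an antisense gene, so its level is uncertain. The count higher was 1 without MONO2 and 1 without TSW2.

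Adhesion genes other than ICAM1 had lower members. CD44, a receptor for hyaluronan, was at 69.2, 97.4 and 96.8 RPKM in MONO and 50.2, 52.0 and 47.1 RPKM in TSW, and the integrin chain ITGA8 at 7.29, 12.4 and 12.2 RPKM in MONO and 3.83, 4.83 and 4.31 RPKM in TSW. Their TSW values were all below the MONO values, by -0.79 ± 0.13 (adjusted p = 0.00141) and -1.10 ± 0.17 (adjusted p = 9.21e-04). Of 22 adhesion genes 3 rose and 3 fell (27.3%), with a median of -0.13, and without MONO1 1 rose. ITGA4, the integrin chain that binds stromal VCAM1, averaged 28.8 and 19.7 RPKM, and was not called in the full fit, at a log2 fold change of -0.40. It was called at -0.86 without MONO1, and was at -0.21 without MONO2 and -0.13 without MONO3. ITGA4 shares 26.4% of its exon bases with CERKL on the other strand.

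The Notch and ID list had 3 genes lower of 13 (23.1%, against 4.16%), with a median of -0.13. HES6, a relative of Notch targets, was at 12, 13.4 and 12.9 RPKM in MONO and 2.03, 1.76 and 1.73 RPKM in TSW, ID2, an inhibitor of E proteins, at 17.3, 12.3 and 12.9 RPKM in MONO and 5.86, 5.35 and 5.03 RPKM in TSW, and its relative ID3 at 23.2, 22 and 21.4 RPKM in MONO and 8.89, 10.3 and 9.59 RPKM in TSW. MONO and TSW values did not overlap in any of them, with log2 fold changes of -2.28 ± 0.12 (adjusted p = 3.49e-07), -1.23 ± 0.14 (adjusted p = 1.07e-04) and -1.13 ± 0.12 (adjusted p = 6.46e-05). HES1, a direct target of Notch, was not called, at 7.33 and 8.24 RPKM (log2 fold change 0.21, and 0.06 to 0.50 with a library left out). Without MONO2 or without MONO3, 1 gene of the list was called higher.

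Genes of the glucocorticoid receptor axis rose in 6 of 13 (46.2%, against 6.48%), with a median of 0.32. The methods name fetal bovine serum in the medium and no glucocorticoid, and glucocorticoid levels are not reported. TSC22D3, which encodes GILZ, was at 11.4, 12.7 and 9.48 RPKM in MONO and 26.3, 28.5 and 24.9 RPKM in TSW, KLF9 at 1.15, 1.95 and 2.04 RPKM in MONO and 4.62, 5.53 and 5.66 RPKM in TSW, and TXNIP, which binds thioredoxin, at 27.3, 32.1 and 29.0 RPKM in MONO and 62.7, 64.5 and 66.4 RPKM in TSW. All 3 genes were higher in every TSW library, by 1.18 ± 0.12 (adjusted p = 5.24e-05), 1.22 ± 0.14 (adjusted p = 1.03e-04) and 1.11 ± 0.09 (adjusted p = 7.32e-06). FKBP5, a common marker of the receptor's activity, was not called, at 14.7 and 17.1 RPKM (log2 fold change 0.23, and 0.06 to 0.33 with a library left out).

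Of 25 genes of NRF2 and oxidative stress 5 rose (20%, against 6.48%), with a median of 0.24. FTH1 and FTL, the ferritin chains that store iron, were at 141, 100.1 and 105 RPKM in MONO and 333, 269.9 and 263 RPKM in TSW and 2179.7, 1691 and 1564 RPKM in MONO and 4697, 4151 and 4087 RPKM in TSW, and ME1, which makes NADPH, at 16.9, 17.3 and 20 RPKM in MONO and 38.8, 34.5 and 35.9 RPKM in TSW. Groups did not overlap, with log2 fold changes of 1.32 ± 0.14 (adjusted p = 8.39e-05), 1.26 ± 0.18 (adjusted p = 4.52e-04) and 0.97 ± 0.09 (adjusted p = 2.62e-05). FTL gained the most RPKM of any called gene, 2500.3 on average, but FTH1 and FTL have 27 and 20 named pseudogenes, FTH1 shares 63.2% of its exon bases with BEST1 on the other strand, and their levels are uncertain. HMOX1 and NQO1, direct targets of NRF2, were not called, at 52.7 and 10.5 RPKM in MONO and 62.7 and 12.3 RPKM in TSW.

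NFE2L1, the factor that restores proteasome synthesis, was the member of 41 proteasome genes that rose, at 51.7, 52.2 and 47.5 RPKM in MONO and 119, 137 and 118 RPKM in TSW, and the list's median was -0.07; without MONO3 1 gene fell. Among 50 genes of lysosome and autophagy 5 rose and 1 fell (12%, against 10.6%), with a median of 0.16, and without MONO1 3 rose and the gene lower was not called. WIPI1, which binds phosphoinositides on forming autophagosomes, was at 12.7, 15.0 and 13.0 RPKM in MONO and 75.6, 77.9 and 68.5 RPKM in TSW, and MITF, a factor related to TFEB, at 1.56, 2.46 and 2.92 RPKM in MONO and 6.72, 5.85 and 7.23 RPKM in TSW. Both kept their calls in each fit that left out a single library, with log2 fold changes of 2.37 ± 0.12 (adjusted p = 3.16e-07) and 1.22 ± 0.15 (adjusted p = 2.05e-04) in the full fit. WIPI1 shares 24.4% of its exon bases with ARSG on the other strand. Of 40 heat shock chaperone genes 2 rose and 3 fell (12.5%, against 10.6%), with a median of -0.08. The count higher was 1 without MONO2, TSW1 or TSW2, and the count lower 5 without MONO2. Among those that fell was HSPA8, the constitutive HSP70, at 1356, 1307 and 1379.8 RPKM in MONO and 783, 733 and 692 RPKM in TSW, lower in every TSW library. HSP90AB1 and HSF1, the chaperone and the factor of the heat shock response, were not called, at 1193 and 75.6 RPKM in MONO and 825 and 60.5 RPKM in TSW. HSPA8 has 20 named pseudogenes.

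Other genes with large changes fall outside these lists. TEX19, a germline gene, rose from 1.63 to 21.1 RPKM, and PVALB, the calcium buffer parvalbumin, was at 1.89, 0.732 and 0.351 RPKM in MONO and 23.9, 25.0 and 23.4 RPKM in TSW. LGALS17A, a galectin pseudogene, was at 0.295, 1.30 and 0.801 RPKM in MONO and 9.43, 11.1 and 9.51 RPKM in TSW. In the order named, the log2 fold changes were 3.09, 3.73 and 2.65. Lower were SPINK2, a protease inhibitor of hematopoietic progenitors, at 24.8, 18.5 and 17.7 RPKM in MONO and 1.57, 1.77 and 2.0 RPKM in TSW, PCP4, a calmodulin-binding peptide, at 538, 416 and 374 RPKM in MONO and 102, 85.3 and 91.8 RPKM in TSW, and CAPG, an actin-capping protein, at 5.67, 3.97 and 3.07 RPKM in MONO and 0.275, 0.387 and 0.150 RPKM in TSW. Their log2 fold changes were -2.93, -2.22 and -2.02. AMPD1, the AMP deaminase of muscle, fell from 7.37 to 1.16 RPKM, WNT5B, a WNT ligand, from 37.3 to 9.71 RPKM, ARHGAP31, which inactivates RAC and CDC42, from 7.83 to 1.5 RPKM and MTMR10 from 25.2 to 5.10 RPKM. MTMR10 overlaps FAN1 in 17.1% of its exon bases.

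By difference in RPKM the most abundant transcripts lead. The linker histone gene H1FX rose from 196 to 417 RPKM and the translation factor gene EIF1 from 382 to 596 RPKM. The gamma actin gene ACTG1 fell from 1756 to 802 RPKM and the lambda light chain gene IGLL5 from 3054 to 1366 RPKM. Of the 12 genes chosen by difference, 6 are pseudogenes or have named pseudogenes, immunoglobulin segments are near-identical to each other and H1FX overlaps an antisense gene in 22.8% of its exon bases. Some calls among these were lost in fits that left out a library. Such fits also have fewer samples, so a loss does not tell whether a change rests on that library. IGLV2-23 fell from 4838 to 2070.0 RPKM, and was not called without TSW2 or TSW3, at log2 fold changes of -1.13 and -1.03. Without MONO2 its log2 fold change was -0.70, against -1.11 with all libraries. ND3 fell from 3900.3 to 2315 RPKM, and was not called without MONO1, TSW1, TSW2 or TSW3, at log2 fold changes of -0.53, -0.67, -0.73 and -0.78. TRNC rose from 1819.6 to 2915 RPKM, and was not called without MONO2, TSW1, TSW2 or TSW3, at log2 fold changes of 0.40, 0.74, 0.74 and 0.80. The values of 0.40 for TRNC without MONO2 and -0.53 for ND3 without MONO1 were under the fold change threshold of 1.5. The TRNC call was also lost with replicates paired by number and with median-of-ratios scaling.

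The study named genes with several distal sites of chromatin that was more accessible in myeloma cells of the upper transwell than in monoculture. It chose them on these culture conditions, so they are not independent of the response. The deposited list has 232 entries, of which 226 matched a symbol of the tables. Of these 171 were tested, of which 54 rose (31.6%, against 6.48% of all genes tested) and 5 fell (2.92%, against 4.16%), with a median of 0.32. BHLHE40, a circadian repressor, was at 5.08, 6.0 and 5.94 RPKM in MONO and 36.3, 35.6 and 35.3 RPKM in TSW, PTP4A3, a phosphatase, at 0.536, 0.578 and 0.445 RPKM in MONO and 7.30, 9.02 and 7.61 RPKM in TSW, and OLFML2B, a matrix protein, at 0.0981, 0.0464 and 0.0133 RPKM in MONO and 5.32, 4.11 and 5.01 RPKM in TSW. TSW values were higher than every MONO value, by 2.46, 2.56 and 2.46. The genes SIK1, a kinase induced by cAMP, and SERPINB1, a protease inhibitor of neutrophils, rose from 1.62 and 4.06 RPKM to 9.91 and 12.7 RPKM.

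Cells in contact with stroma share the MONO libraries as controls, so changes from MONO are not compared between TSW and CO. In a direct test between them, TSW and CO differed by 42 calls among 10153 genes (0.414%). CHAC1 averaged 42.9 RPKM in TSW and 25.0 RPKM in CO, DDIT3 25.1 and 16.6 RPKM, and ASNS 154 and 117 RPKM. Differences of these stress genes between TSW and CO were not called. CDKN1A, at 96.9 and 60.1 RPKM, was called between these conditions, with a log2 fold change, TSW minus CO, of 0.69 and an adjusted p of 0.0353. CCL3, at 58.3 and 15.5 RPKM, was called too, with 1.85 and 7.30e-04. HMOX1 was called in the other direction, at 62.7 and 117 RPKM, with -0.87 and 0.0247. The CO libraries also held stromal transcripts, with stromal markers summed to 230.0, 246 and 213 RPKM, against 25.0, 25.1 and 26.1 RPKM in TSW. The paper reports a minimal level of HS5 cells among myeloma cells sorted from the lower chamber. Their part in the differences between TSW and CO was not tested. Among cytokine response genes SOCS3 was at 64.4 and 68.6 RPKM, STAT3 at 44.8 and 41.3 RPKM, and the class II gene HLA-DRA at 120.4 and 141 RPKM.

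RPMI8226 cells, with 2 libraries per condition, had 3352 calls among 10319 genes (32.5%), 1500 higher (14.5%) and 1852 lower (17.9%). The tables of the lines were normalized separately, and no test was made between them. Of 9397 genes tested in both, 598 rose in MM.1S and 327 of these rose in RPMI8226, which is 54.7% of the MM.1S list and 25.8% of the RPMI8226 list. Of 344 that fell in MM.1S, 161 fell in RPMI8226, or 46.8% and 9.54% of the lists. Opposite calls numbered 17 among the genes that rose in MM.1S (2.84%) and 31 among those that fell (9.01%). SOCS3 was at 1.82 and 1.31 RPKM in MONO and 50.9 and 53.8 RPKM in TSW, and IL32 at 61.9 and 62.9 RPKM in MONO and 418 and 507 RPKM in TSW. Both rose in RPMI8226 as in MM.1S, with log2 fold changes of 4.39 and 2.86.

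Lists of the lines are set side by side as values, with no test of the difference. Of all genes tested in RPMI8226, 14.5% were higher and 17.9% lower, with a median of -0.08. In MM.1S these values were 6.48%, 4.16% and 0.01. Interferon-stimulated genes had 58 of 64 higher and a median of 2.04 in RPMI8226, against 14 of 50 and 0.28 in MM.1S. Class II genes had 1 higher and 2 lower of 14 and a median of -0.01, against 10 lower of 15 and -1.08. Integrated stress response genes had 30 higher and 2 lower of 53 and a median of 0.67, against 35 and 1 and 0.80. DNA replication had 45 of 66 lower and a median of -0.82, against 5 of 66 and -0.18. Ribosome biogenesis and the MYC network had 69 of 103 lower and a median of -0.80, against 6 of 103 and -0.12. Secretory and unfolded protein genes had 36 higher and 1 lower of 87 with a median of 0.49, against 11 and 2 of 87 and 0.04.

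**Figure D5:**
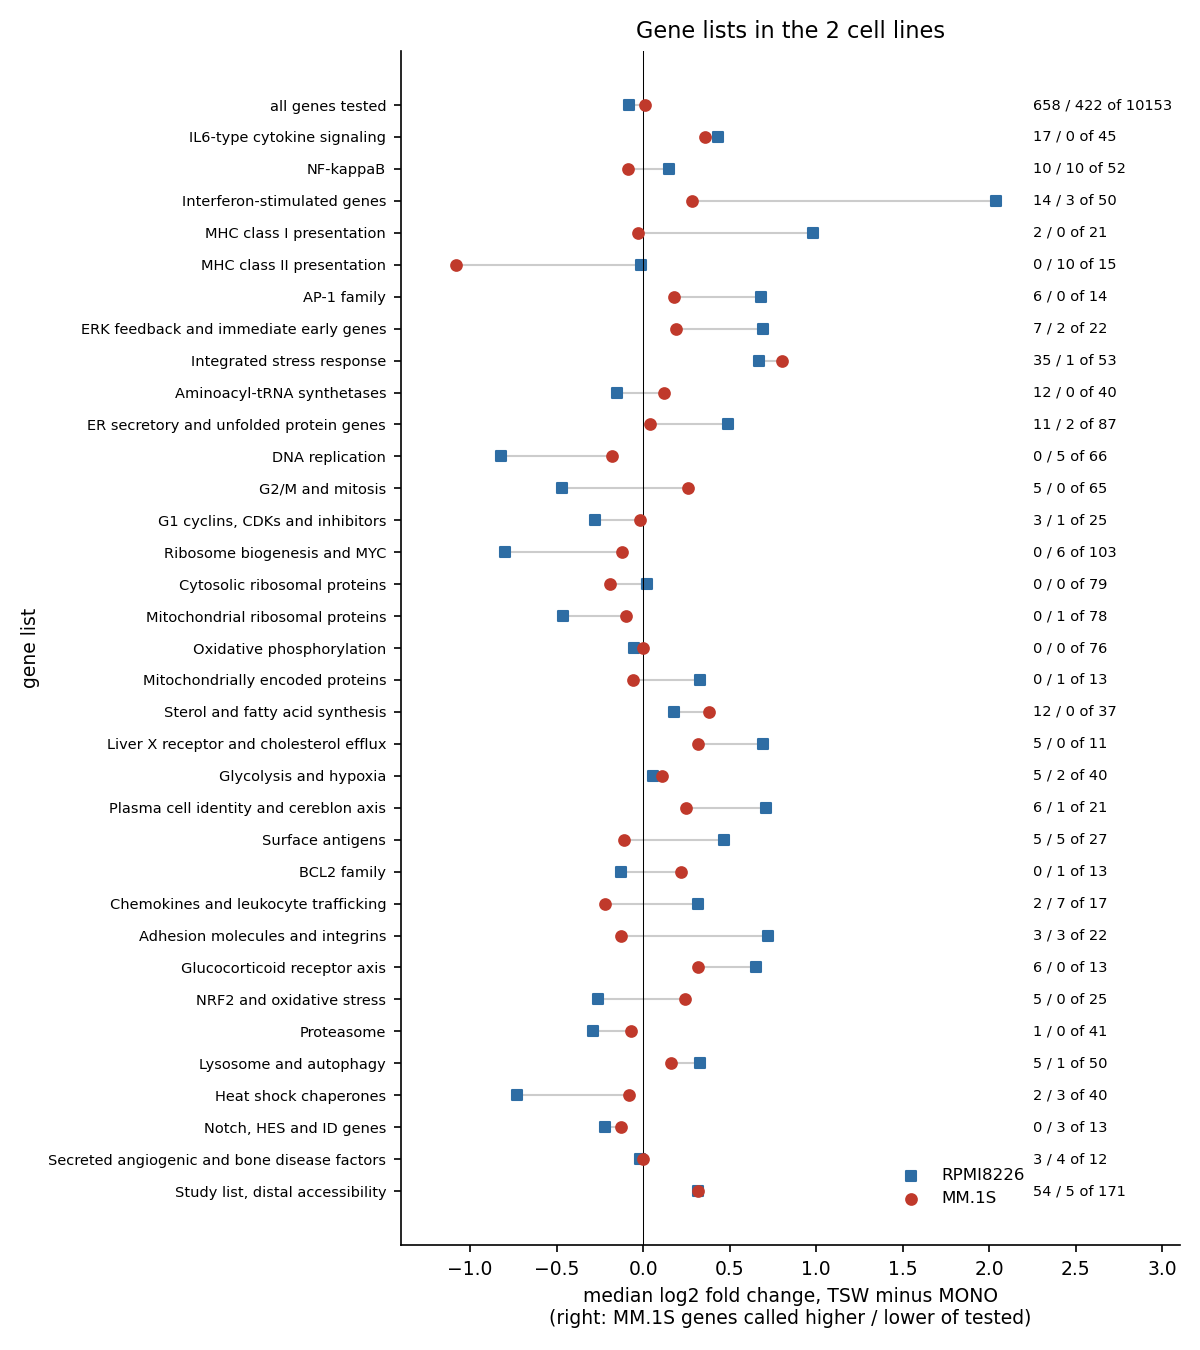
Median log2 fold change, TSW minus MONO, of the tested genes of gene lists in MM.1S (circles) and RPMI8226 (squares), with the vertical line at 0. Cell type marker lists are not drawn, nor is a list of p53 targets. In MM.1S 7 of 23 tested p53 targets were called higher (30.4%, against 6.48% of all genes tested), with a median of 0.35. Numbers at the right are the genes called higher and lower in MM.1S; class II presentation lies at -1.08 in MM.1S and -0.01 in RPMI8226, and interferon-stimulated genes at 0.28 and 2.04.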

How the data were processed

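RNA-seq libraries of MM.1S (3 each of MONO, TSW and CO) and RPMI8226 (2 each) were used. The authors aligned paired-end reads to hg38 with Subread, summarised them per RefSeq gene with featureCounts and deposited log2 of RPKM + 1 with 0.0001 added. That offset was subtracted; 100.00% of values above 0 with a known length were within 0.05 of a whole tag count. Groups came from the column names. Genes with a mean of at least 1 RPKM within a line were fitted with limma 3.58.1 (R 4.3.3, empirical Bayes with a trend) on log2(RPKM + 1), without further scaling and with replicates unpaired, and p-values were adjusted by Benjamini and Hochberg. Alternatives changed the pseudocount, expression filter, scaling, pairing, libraries in the fit, variance model, call rule and correction for GC content and length. In MM.1S 1 tag on a 2 kb transcript was 0.0262 to 0.0555 RPKM. Methods were tested on simulated data. Named genes were the 12 largest increases and 12 largest decreases of log2 level among called genes without overlap, the 6 and 6 largest by difference of mean RPKM, called genes without a tag in a condition, and list members: up to 4 called in each direction, the most abundant and defining members. Lists and members were chosen with earlier results of these data known. Lists are described by counts and medians without a test.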

Additional observations from a re-analysis of the deposited data

Results flagged for a closer look

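For 25 named genes the TSW values lay all on 1 side of the MONO values in MM.1S and all on the other side in RPMI8226. Of these 17 were called in MM.1S, 12 in RPMI8226 and 7 in both, so many did not pass the test in a line. Named genes tested in MM.1S numbered 180, and part of them were chosen for changes without overlap there. Among all 9397 genes tested in both lines 902 (9.60%) had such opposite sides. The 25 are thus a count among chosen genes and are not compared with that share. The difference between the lines was not tested. Log2 fold changes below are those of RPMI8226, TSW minus MONO, with 2 libraries per condition. With 3 TSW values above 3 MONO values in MM.1S, the RPMI8226 values were BCL2L1 -0.13, BCL2L11 -0.32, CCND2 -1.0, FTH1 -0.55, FTL -0.20, HMOX1 -4.37, IL6R -0.13, IRF4 -0.94, ME1 -0.18, MITF -0.17 and NQO1 -1.78. HMOX1 and NQO1, targets of NRF2, had the lowest of these and were not called in MM.1S. With the 3 TSW values below the 3 MONO values in MM.1S, the RPMI8226 values were CCL5 1.62, CD74 0.50, DUSP4 0.22, ID3 1.69, IGLV2-23 2.72, JCHAIN 0.80, KLF2 0.40, MXD4 0.33, ND3 0.33, NFKB2 0.95, RGS1 2.58, RTP4 1.28, TNFAIP3 0.71 and TNFAIP8 0.17. These include the chemokine gene CCL5, RGS1, which dampens chemokine receptors, and the E protein inhibitor ID3.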

How the results depend on the processing

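In MM.1S the counts of genes called higher (658) and lower (422) stayed within 1.5 times under each alternative but the absence of a fold change threshold, which admits smaller changes and gave 1459 and 1310, and 6921 in place of 3352 in RPMI8226. Leaving out a library gave 546 to 909 higher and 401 to 583 lower. In RPMI8226, where such fits were chosen after seeing the data, a single library is then left in the condition. Their counts are therefore not given. A pseudocount of 0.1 gave 854 and 575, a minimum of 5 RPKM, which tests fewer genes, 457 and 283, and quantile normalization 547 and 480.

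The replicate block, which treats equal replicate numbers as paired, gave 660 and 421. Under it TRNC was not called, at 0.76, the value of the fit without it. Each of the 3 MONO libraries correlated best with its own number in TSW, at 0.197, 0.0662 and 0.286 against -0.261 to -0.00806 for other numbers, a hint from the data and not the design.

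Also chosen after seeing the data, omitting MONO1 together with a loess fit on GC content and length gave 511 and 422, and omitting pseudogenes and genes with named pseudogenes 549 and 361. Of 143 named genes called in MM.1S, 139 kept the call in each alternative that tested them. The others were IGLV2-23 and ND3, lost in some fits without a single library and with no expression filter, TRNC, lost in such fits and with a pseudocount of 0.1, a minimum of 5 RPKM, median-of-ratios scaling (0.75) and the block, and ECT2, at 0.56 when MONO1 was omitted with the loess fit. IGLV2-23 and TRNC were also lost with MONO and TSW alone in the fit. Medians moved by more than the replicate spread in at least 1 alternative for 57 of 111 gene lists and their parts, 29 of them without MONO1; the cause was not tested. Depth limits genes with few tags.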

Other observations

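Of 78 mitochondrial ribosomal protein genes 1 fell, with a median log2 fold change of -0.10, and the count lower was 3 without MONO2 and 5 without MONO3, while the call was lost without MONO1. Of 13 mitochondrially encoded protein genes the full fit called ND3 lower, a call lost without MONO1, TSW1, TSW2 or TSW3; without MONO3 1 gene of the list was also called higher. Their median was -0.06.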
